A study of Mus musculus with 8 samples.

Results

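Transcripts of 10 genes of the normal mammary gland were followed in tumors grown from 4T1 cells: 4 caseins (Csn1s1, Csn1s2a, Csn2, Csn3), the whey proteins Wap and Lalba, the alveolar transcription factor Elf5, and the receptors for prolactin (Prlr), estrogen (Esr1) and progesterone (Pgr). Each gene was taken at its single-symbol probe set, the one with the highest mean over 8 tumors where there were several. This rule gave a value for 8 of the 10 genes, among 19937 genes with such a probe set. The one Lalba probe set also lists Trip12 and names no gene, and Prlr was not analysed here. All 8 measured genes had 1 probe set each and passed the mean limit of 4.0 on the log2 scale, and their symbols matched RefSeq by Entrez ID.

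4T1 is a mammary carcinoma line that is widely used as a model of hormone receptor-poor breast cancer, and the cells were placed in the fourth mammary gland of BALB/c mice. In 4 tumors the gland had not been irradiated (nonirradiated), and in 4 tumors it had received a single local dose of 20 Gy of X-rays before implantation (preirradiated). Both groups carried the same cells and had 18 days of growth. RNA came from whole tumors, so tumor cells, host stroma and any enclosed mammary gland or skin are averaged, and fewer cells of a type cannot be told apart from less RNA per cell. The labels do not state the age or sex of the mice, their hormonal state, or whether each tumor came from its own mouse, so p-values measure the spread between these tumors.

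Milk protein genes are switched on in alveolar cells of the gland in pregnancy and lactation. Prolactin binds its receptor, the kinase Jak2 is activated, and the transcription factors Stat5a and Stat5b enter the nucleus and bind casein promoters, while Elf5 directs the alveolar fate. Estrogen and progesterone act through receptors in a separate set of luminal cells that drive ductal growth and side branching.

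The promoters of 3 caseins are shown because the Stat5 pathway acts on these genes. In each sequence (RefSeq, GRCm38.p6, 250 bases before to 50 after the gene's start, written in the direction of transcription) capitals mark every match to TTCNNNGAA, the core of a Stat5 site, which reads the same on both strands.
Csn1s1, chr5:87665958-87666257, plus strand: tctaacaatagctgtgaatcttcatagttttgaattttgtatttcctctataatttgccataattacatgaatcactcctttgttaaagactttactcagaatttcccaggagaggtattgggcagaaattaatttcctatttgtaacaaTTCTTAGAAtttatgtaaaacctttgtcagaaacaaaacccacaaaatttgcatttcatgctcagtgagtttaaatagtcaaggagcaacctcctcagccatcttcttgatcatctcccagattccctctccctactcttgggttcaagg
Csn2, chr5:87699376-87699675, minus strand: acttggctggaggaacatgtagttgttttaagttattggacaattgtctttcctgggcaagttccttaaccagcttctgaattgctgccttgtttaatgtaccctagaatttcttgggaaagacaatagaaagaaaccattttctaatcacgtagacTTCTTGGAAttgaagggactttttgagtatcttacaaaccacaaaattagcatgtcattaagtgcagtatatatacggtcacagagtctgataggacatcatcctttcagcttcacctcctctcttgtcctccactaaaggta
Csn1s2a, chr5:87774200-87774499, plus strand: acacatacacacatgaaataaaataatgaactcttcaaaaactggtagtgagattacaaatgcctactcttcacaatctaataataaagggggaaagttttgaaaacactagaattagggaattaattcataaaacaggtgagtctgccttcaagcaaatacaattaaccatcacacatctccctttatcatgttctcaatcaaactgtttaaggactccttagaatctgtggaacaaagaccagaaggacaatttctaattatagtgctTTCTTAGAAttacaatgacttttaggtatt
Each of the 3 sequences held 1 match. The match TTCTTAGAA began 100 bases before the start in Csn1s1, TTCTTGGAA began 93 bases before it in Csn2, and TTCTTAGAA lay at base 21 after it in Csn1s2a. Of 32851 promoters of this length in the table, 8.3% held a match. The table lists promoters for 9 of the 10 genes, 13 in all. Prlr and Esr1 also had a match, each in 1 of their promoters, and those of Wap, Lalba, Elf5 and Pgr had none in this window. The full palindromic estrogen response element, a 13-base motif searched by its consensus on both strands, was in 0.07% of all promoters and in 0 of the 13. A match describes the letters and was not tested as a bound site.

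The measured milk protein genes gave low signals in all 8 tumors. Apart from Csn3, these signals were nearly flat. Csn2, the gene of beta-casein, was 4.97, 5.04, 5.03 and 5.07 in nonirradiated tumors 1 to 4 and 5.03, 4.98, 5.02 and 4.99 in preirradiated tumors 1 to 4 (log2 RMA signal). The groups overlapped, and the whole range over 8 tumors was 0.092. Csn1s1, the gene of alpha-s1-casein, was 4.89, 4.88, 4.78 and 4.84 in nonirradiated and 4.88, 4.91, 4.79 and 4.81 in preirradiated tumors. Csn1s2a, the gene of an alpha-s2-type casein, was 4.54, 4.58, 4.62 and 4.54 against 4.54, 4.54, 4.62 and 4.62. No tumor stood out in either of these genes. Wap, the whey acidic protein, was 5.75, 5.88, 5.93 and 5.89 in nonirradiated and 5.92, 5.80, 5.89 and 5.94 in preirradiated tumors. Its lowest value was that of nonirradiated tumor 1, and the groups overlapped.

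**Figure D1:**
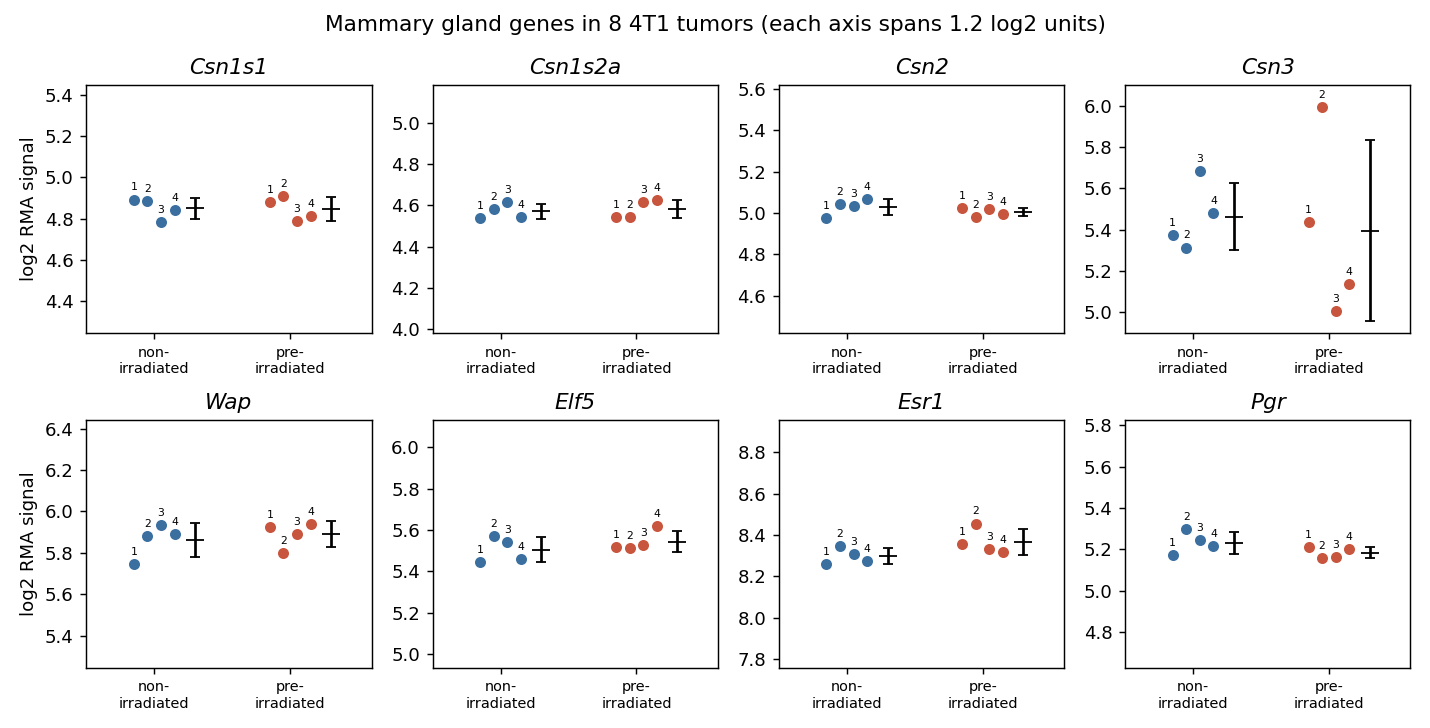
Log2 RMA signal of the 8 measured genes (vertical axis, the same span of 1.2 log2 units in every panel) in nonirradiated (blue) and preirradiated (red) tumors. Points are tumors with their number, and the black bar is the mean ± SD of 4 tumors. Csn3 spreads from 5.01 to 5.99, and the other genes stay within 0.20 log2 units.

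Csn3, the gene of kappa-casein, which keeps casein micelles in suspension, varied most. It was 5.38, 5.31, 5.68 and 5.48 in nonirradiated and 5.44, 5.99, 5.01 and 5.14 in preirradiated tumors. Preirradiated tumor 2 was the highest of all 8, and preirradiated tumors 3 and 4 were the lowest, so the nonirradiated values lay inside the preirradiated range. The SD over 8 tumors was 0.31 for Csn3, larger than for 97.5% of genes, against 0.032 for Csn2, 0.050 for Csn1s1, 0.039 for Csn1s2a and 0.068 for Wap.

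Elf5, an ETS factor of alveolar progenitors, was 5.45, 5.57, 5.54 and 5.46 in nonirradiated and 5.52, 5.51, 5.53 and 5.62 in preirradiated tumors. The groups overlapped, with preirradiated tumor 4 the highest. Pgr, the progesterone receptor, was 5.17, 5.30, 5.24 and 5.21 against 5.21, 5.16, 5.16 and 5.20. Preirradiated tumors lay in the lower part of the nonirradiated range or just below it. Esr1, estrogen receptor alpha, was 8.26, 8.35, 8.31 and 8.27 in nonirradiated and 8.36, 8.46, 8.33 and 8.32 in preirradiated tumors. Preirradiated tumor 2 was the highest, and the preirradiated values began within the nonirradiated range.

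Esr1 was the 1 measured gene whose mean signal lay above every gene of a low range set from sensory neurons, and Wap and Elf5 lay in the upper end of that range. This range came from 1194 olfactory and vomeronasal receptor genes, which are not thought to be expressed in mammary tumors. Their mean log2 signals had a median of 4.70 and a 95th percentile of 5.44. Probes differ in affinity, so the range is a guide and no order of levels between genes is read from it. A mean as high as that of Csn1s2a was reached by 68.2% of the receptor genes, and for Csn1s1, Csn2 and Pgr the shares were 30.2%, 17.3% and 9.80%. The shares were 5.28% for Csn3, 3.52% for Elf5 and 1.42% for Wap. Esr1, with a mean of 8.33, was above all 1194, whose highest was 7.79. Signals within this range give no measure of how much transcript was present, and a change in such a gene may be understated.

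**Figure D2:**
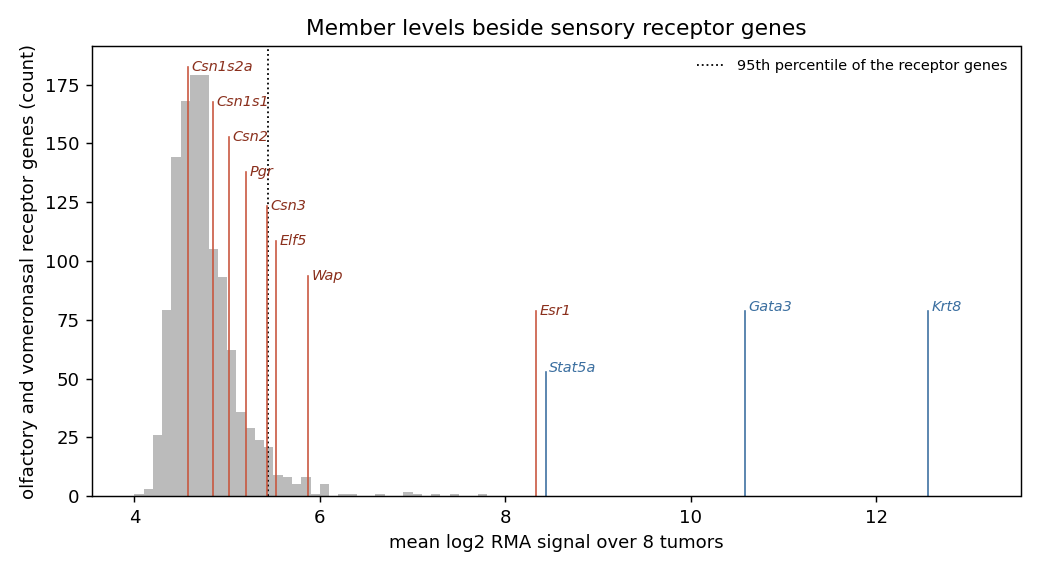
Histogram of the mean log2 RMA signal over 8 tumors for 1194 olfactory and vomeronasal receptor genes (gray, number of genes on the vertical axis). Red lines mark the 8 measured mammary genes and blue lines mark Stat5a, Gata3 and Krt8; line height has no meaning. Of the red lines, Esr1 at 8.33 is the one beyond the highest receptor gene.

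Signals across the casein locus were also low. In the RefSeq gene order on chromosome 5, Csn1s1, Csn2, Csn1s2a, Csn1s2b, Prr27, Odam, BC037156 and Csn3 follow each other, flanked by Sult1e1 and Cabs1. All 10 were measured, and the means of all 10 were at or below the 95th percentile of the receptor genes, from 4.45 to 5.43. Csn1s2b, the second alpha-s2-type casein, ran from 4.42 to 4.72 over the 8 tumors. Differences between the groups over these genes ran from -0.069 to 0.061, and the smallest unadjusted limma p was 0.0984. That p and the difference of 0.061 belonged to Odam, whose groups did not overlap. It was 4.55 to 4.61 in preirradiated and 4.49 to 4.54 in nonirradiated tumors. Groups did not overlap in 3.36% of all probe sets, counting both directions.

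No measured gene differed between preirradiated and nonirradiated tumors beyond the spread between tumors. With limma and Benjamini-Hochberg adjustment over 34738 probe sets, 0 of the 8 passed an adjusted p of 0.05, against 0% of all probe sets. At an unadjusted p under 0.05 there were 0 of 8, against 5.8% (2015 probe sets). The filter given in the design text, with an unadjusted p of 0.05 or less and a log2 change of 0.4 or more (read as size in either direction), took 0 of 8, against 0.642%, and the groups did not overlap in 0 of 8, against 3.36%. There were 4 genes higher and 4 lower. Their median difference was 0.0049, against -0.0038 over all 19937 genes.

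The intervals bound how large a signal difference these arrays allow. Esr1 was 8.37 ± 0.062 in preirradiated and 8.30 ± 0.040 in nonirradiated tumors (SD, n = 4 each), a log2 difference of 0.068 (SE 0.043, 95% interval -0.031 to 0.17, limma adjusted p = 0.909). This corresponds to 1.05-fold, with an interval from 0.979-fold to 1.12-fold. Pgr was 5.18 ± 0.027 against 5.23 ± 0.053, a difference of -0.048 (95% interval -0.14 to 0.041). Elf5 was 5.54 ± 0.052 against 5.50 ± 0.061, a difference of 0.039 (95% interval -0.064 to 0.14). Both receptors and Elf5 had intervals well inside the change limit of 0.4. Among them Esr1 alone had a mean above every sensory receptor gene. The intervals of Pgr and Elf5 bound a signal in the low range, where a change in transcript may be understated.

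The measured milk proteins other than Csn3 also had signal intervals inside the change limit of 0.4. Their signals lay in the low range too, so a change in transcript may be understated. Csn2 was 5.00 ± 0.021 against 5.03 ± 0.039, a difference of -0.024 (95% interval -0.10 to 0.056). Csn1s1 differed by -0.0018 (95% interval -0.10 to 0.099) and Csn1s2a by 0.012 (95% interval -0.077 to 0.10). Wap was 5.89 ± 0.062 against 5.86 ± 0.080, a difference of 0.027 (95% interval -0.093 to 0.15). Csn3 was 5.39 ± 0.44 against 5.46 ± 0.16, a difference of -0.069 (SE 0.20) with an interval of -0.53 to 0.39, so a change as large as the study's limit lies within it. Leaving out preirradiated tumor 2 brought it to -0.27, and leaving out preirradiated tumor 3 turned it to 0.060, preirradiated tumor 4 to 0.016 and nonirradiated tumor 3 to 0.0049. The signs of the Csn1s1, Csn1s2a and Wap differences turned under other scalings or weights and without single tumors, as given under the processing settings.

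**Figure D3:**
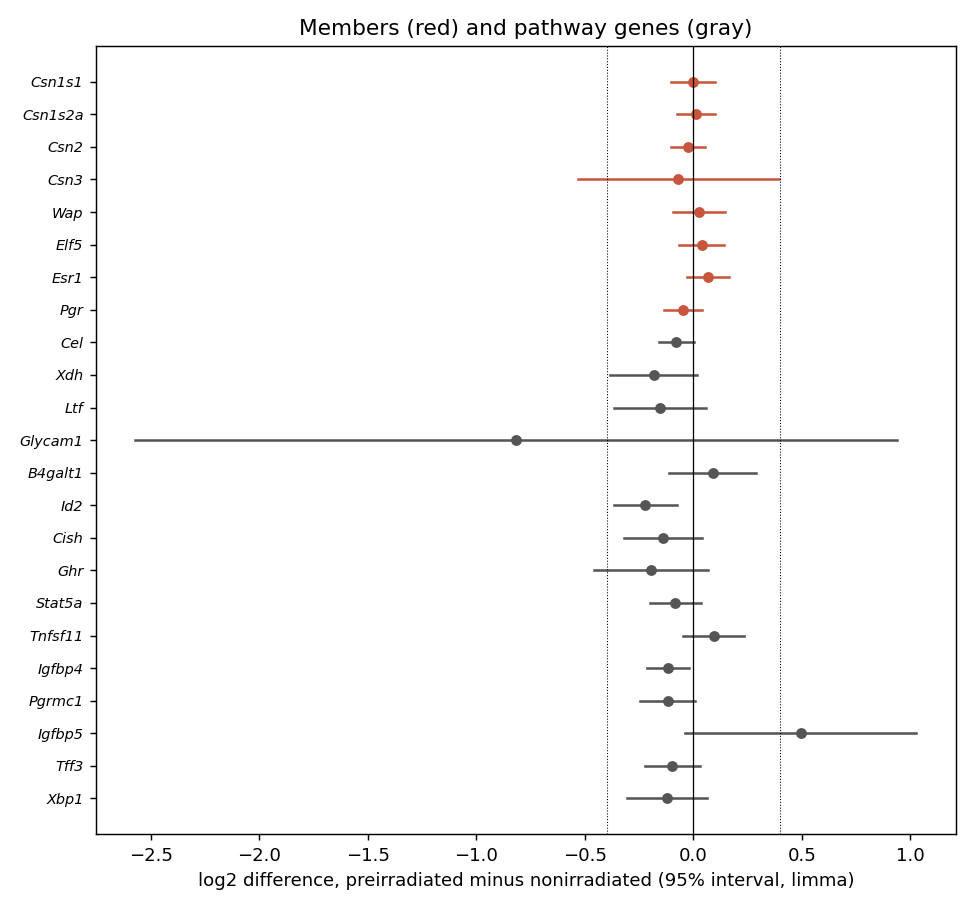
Log2 difference between preirradiated and nonirradiated tumors (horizontal axis) for the 8 measured mammary genes (red) and 15 genes of related pathways (gray). Points are limma estimates, lines are 95% intervals, and dotted lines mark the study's change limit of 0.4 in size. All 8 red intervals include 0, and Csn3 has the widest of them.

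The highest Csn3 signal was found in the tumor with the highest mean of luminal epithelial genes, and the correlations of single luminal genes with Csn3 were mixed. In preirradiated tumor 2, Epcam, an epithelial adhesion molecule, was 10.16 against 9.07 to 9.51 in the other tumors. Cdh1, the gene of E-cadherin, was 10.27 there and at most 9.90 elsewhere, and the tight junction gene Cldn4 was 11.67 there and at most 11.19 elsewhere. Krt19, a keratin of simple epithelium, was 7.90 there and at most 7.59 elsewhere. Of 13 luminal genes 7 were highest in this tumor, and Krt8 and Krt18 were not among them. The mean of all 13 was 9.15 in this tumor, 8.76 to 8.89 in nonirradiated tumors and 8.77 to 8.95 in the other preirradiated tumors. In nonirradiated tumor 3, which had the second highest Csn3 signal at 5.68, Epcam and Cdh1 were at their lowest, 9.07 and 9.35. Over the 8 tumors the Pearson correlation of Csn3 with the 13 luminal genes ran from -0.48 (Ehf) to 0.82 (Elf3, another epithelial ETS factor), and 9 of 13 were above 0. Krt8 had -0.038, Krt18 0.050, Cldn7 -0.099 and Prom1 -0.24. Without preirradiated tumors 2 and 3, the tumors farthest from the Csn3 median, the range was -0.91 (Cldn7) to 0.55 (Elf3), and 4 of 13 were above 0. Epcam went from 0.67 to -0.42. Both tumors were picked by their Csn3 values, which cuts the Csn3 range, so nothing is read from this fall in r. All these correlations are descriptions of genes chosen after their values were seen. The part of epithelial content in the Csn3 signal was not tested.

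The genes most like Csn3 over the 8 tumors were not milk genes. The closest of 17066 named genes were Ttc23, a tetratricopeptide-repeat gene (Pearson r = 0.978), the zinc finger genes Zfp113 (0.967) and Zfp719 (0.958), the membrane protein gene Tmem19 (0.966) and Hars2, a mitochondrial histidyl-tRNA synthetase (0.965). Without preirradiated tumors 2 and 3 their r was 0.867 to 0.976. Each had its highest signal in preirradiated tumor 2. Being the extremes of so many genes over 8 tumors, these values are a description only.

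**Figure D4:**
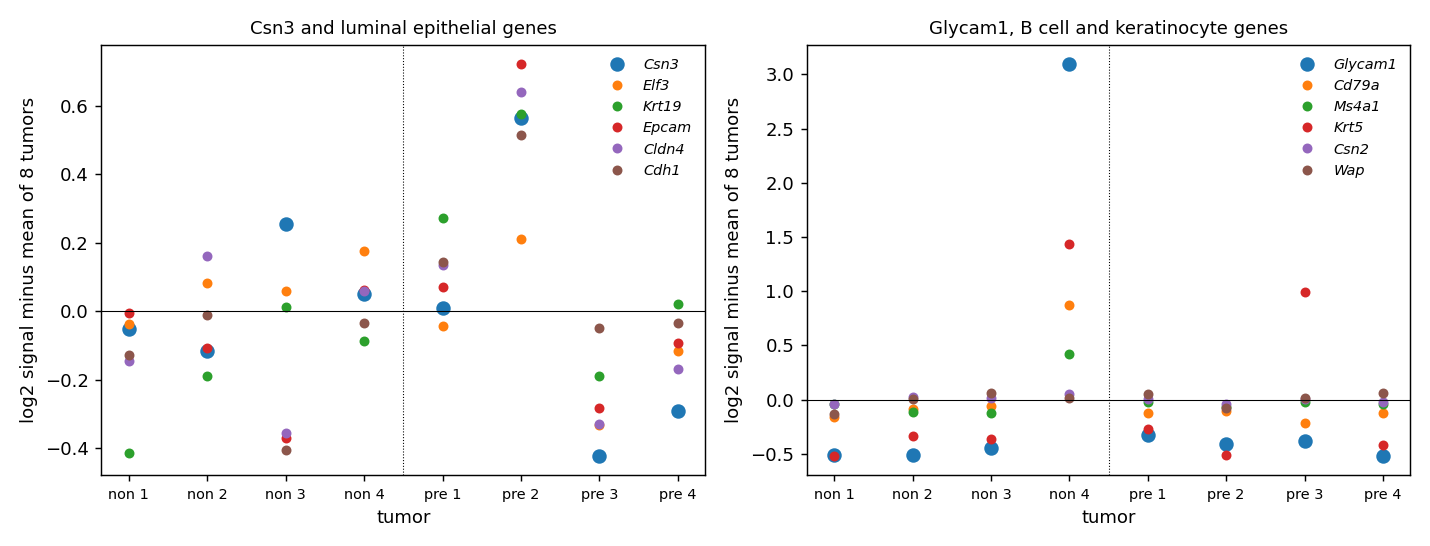
Log2 signal of each gene minus its mean over 8 tumors (vertical axis) by tumor (horizontal axis; non, nonirradiated; pre, preirradiated), with Csn3 and luminal genes on the left and Glycam1, B cell, keratinocyte and milk genes on the right. Csn3 and the 5 luminal genes drawn share their highest value in preirradiated tumor 2. All 5 were taken from the 7 of 13 listed luminal genes that peak in that tumor, so the shared peak follows from this choice. Glycam1 stands apart in nonirradiated tumor 4.

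Other genes of milk production ran from the low range to strong signals. Of 23 listed genes 22 were measured, 10 had means at or below the 95th percentile of the receptor genes, and 5 had means above all of them. Btn1a1, butyrophilin of the milk fat globule, was 5.16 to 5.23 over the 8 tumors. Xdh, a xanthine oxidoreductase that also coats milk fat globules, was 10.50 to 10.99, and the lipid droplet coat gene Plin2 was 10.58 to 11.03. In the comparison 11 genes were higher and 11 lower, 0 passed the adjusted p or the study's filter, and 0 had an unadjusted limma p under 0.05. That last count holds for this fit, since other settings, among them leaving out single tumors, brought Cel, Xdh and B4galt1 under 0.05. Their median difference was 0.00041. The smallest p was that of Cel, a bile salt-activated lipase of milk, at 5.10 ± 0.026 against 5.18 ± 0.042 (limma adjusted p = 0.856). The mean of Cel lay in the low range and was reached by 11.8% of the receptor genes. Xdh was 10.68 ± 0.13 against 10.86 ± 0.15, and Ltf, lactoferrin, was 6.22 ± 0.097 against 6.37 ± 0.18. B4galt1, the galactosyltransferase that joins alpha-lactalbumin in lactose synthesis, was 10.46 ± 0.17 against 10.38 ± 0.089.

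One gene of this list was far above the rest in a single tumor. Glycam1, a mucin-like protein secreted into milk and also made by high endothelial venules of lymph nodes, was 4.72, 4.73, 4.79 and 8.33 in nonirradiated and 4.91, 4.82, 4.85 and 4.71 in preirradiated tumors. Nonirradiated tumor 4 alone lay outside the low range. The difference was -0.82 (SE 0.77, limma adjusted p = 0.958), and without that tumor it was 0.078. In the same tumor Csn2 was 5.07, against 4.97 to 5.04 in the other nonirradiated tumors, and Wap at 5.89 and Csn3 at 5.48 lay inside their ranges. The B cell genes Cd79a and Ms4a1 were 5.69 and 5.09 there, against at most 4.76 and 4.65 in the other 7 tumors. The mean of 9 B and T cell genes of lymph nodes was 6.27 there, and 5.92 to 6.06 in the other nonirradiated and 5.69 to 5.99 in the preirradiated tumors. Krt5, a basal keratin of skin and mammary myoepithelium, was 7.37 there and 6.93 in preirradiated tumor 3, and at most 5.66 elsewhere. The part of lymph node or skin tissue in these signals was not tested.

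Most components of prolactin signaling downstream of the receptor were above the low range, while the hormone's own gene was not. Prl was 4.87 to 5.02 over the 8 tumors, which says nothing of the pituitary hormone in blood. Of the 22 genes of this list, 16 had means above all sensory receptor genes. Jak2 had a mean of 10.17, Stat5a ran from 8.33 to 8.59 and Stat5b from 8.37 to 8.76. In the comparison 9 genes were higher and 13 lower, with a median difference of -0.020, and 0 passed the adjusted p or the study's filter. One gene had an unadjusted p under 0.05 and was lower (2.97% of all probe sets) with groups that did not overlap (1.68% of all probe sets in that direction). This was Id2, an inhibitor of bHLH factors needed for alveolar growth, at 10.51, 10.39, 10.45 and 10.66 in nonirradiated and 10.28, 10.37, 10.23 and 10.24 in preirradiated tumors. Its highest preirradiated value lay just under the lowest nonirradiated one, and the log2 difference was -0.22 (SE 0.063, limma adjusted p = 0.755). Without preirradiated tumors 1 and 3, a setting chosen after seeing the data, it was -0.20, with an unadjusted limma p of 0.061. In every other setting run the unadjusted limma p of Id2 was 0.0043 to 0.028, and its smallest adjusted p was 0.541. The mean of 10 macrophage genes was also lower in every preirradiated tumor (10.40 to 10.50, against 10.51 to 10.65), and that of 10 fibroblast genes was higher in every one (9.38 to 9.73, against 9.06 to 9.28). The part of cell content in the Id2 and Igfbp4 signals was not tested.

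The next smallest p-values of that pathway belonged to genes whose groups overlapped. Cish, a Stat5-induced feedback inhibitor, was 7.19 ± 0.15 against 7.33 ± 0.090. Ghr, the growth hormone receptor, was 9.42 ± 0.25 against 9.61 ± 0.075, with preirradiated tumors 3 and 4 lowest at 9.31 and 9.13. Stat5a was 8.39 ± 0.046 against 8.48 ± 0.087. Tnfsf11, the RANK ligand through which progesterone acts on neighboring cells, was 7.62 ± 0.095 against 7.52 ± 0.085. Other settings brought the unadjusted limma p of Cish, Ghr and Stat5a under 0.05, to 0.039, 0.028 and 0.044 at the smallest. For Tnfsf11 the smallest was 0.068.

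Genes of estrogen and progesterone action ran from the low range to strong signals. RNA came from whole tumors, and which cells made Esr1 or these transcripts was not tested. Gata3, a luminal transcription factor, was 10.41 to 10.71 over the 8 tumors. Foxa1, a factor that opens chromatin for estrogen receptor alpha, was 5.54 to 5.79, a mean reached by 2.68% of the sensory receptor genes. Greb1, an estrogen-induced gene, was 4.81 to 4.98, and Esr2, estrogen receptor beta, was 5.33 to 5.61. Of 29 listed genes of estrogen and progesterone action 23 were measured. Of these, 20 had means above the 95th percentile of the sensory receptor genes, and 12 had means above all of them. In the comparison 8 of the 23 were higher and 15 lower in preirradiated tumors, with a median difference of -0.022. Among them 0 passed the adjusted p or the study's filter.

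Within this list Igfbp4, an IGF-binding protein, was the 1 gene with an unadjusted p under 0.05 (0.0243; lower, against 2.97% of all probe sets) and was 12.03 ± 0.070 against 12.15 ± 0.020 (limma adjusted p = 0.812, difference -0.12). Its values were 11.99, 11.99, 12.01 and 12.14 in preirradiated and 12.12, 12.17, 12.16 and 12.15 in nonirradiated tumors. Preirradiated tumor 4 lay inside the nonirradiated range. The unadjusted limma p was 0.134 after a further quantile normalization (difference -0.082), 0.058 with a replicate block, 0.051 at a mean limit of 6 and 0.177 without preirradiated tumors 1 and 3. It was also above 0.05, at 0.053 to 0.064, on leaving out nonirradiated tumor 2 or 3 or preirradiated tumor 1, 2 or 3. The unadjusted limma p stayed under 0.05 in the other settings. It was 0.0069 with array weights, 0.0070 with centred arrays and 0.021 with a trend and robust variance model. Leaving out preirradiated tumor 4 gave 0.0027, nonirradiated tumor 1 gave 0.032 and nonirradiated tumor 4 gave 0.047. The smallest adjusted p of Igfbp4 in any setting was 0.491. Igfbp5, an IGF-binding protein abundant in the involuting gland, was 8.18 ± 0.48 against 7.68 ± 0.25. It reached 8.30 in preirradiated tumor 1 and 8.79 in preirradiated tumor 3, compared with 7.72 and 7.89 in the rest of that group. Preirradiated tumors 1 and 3 also had high skeletal muscle genes (list means of 8.90 and 10.28, against 5.96 to 6.18 in the other tumors), and they were also highest in the fibroblast list (9.73 and 9.66, against 9.06 to 9.46) and the adipocyte list (8.14 and 6.95, against 6.29 to 6.78). Without both tumors the Igfbp5 difference was 0.12. This leaves out all 3 tissues together, and the part of each in this signal was not tested. Pgrmc1, a membrane heme protein once named for progesterone binding, was 9.16 ± 0.092 against 9.28 ± 0.058. Tff3, a trefoil factor, was 5.81 ± 0.022 against 5.90 ± 0.11, and it was the 1 gene of 23 that was lower with no overlap (1.68% of all probe sets), although the groups met at 5.84 to the digits given. Xbp1, a secretory-pathway factor that estrogen induces, was 11.02 ± 0.16 against 11.14 ± 0.072. The count of 1 gene of this list at an unadjusted p under 0.05 holds for the main fit. Other settings also brought Pgrmc1, Igfbp5, Tff3 and Xbp1 under it, with smallest unadjusted limma p of 0.022, 0.022, 0.033 and 0.034.

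The epithelial part of the tissue label, a mammary epithelial carcinoma, was checked against markers. The luminal keratin genes Krt8 and Krt18 were 12.45 to 12.63 and 11.80 to 12.03, above the highest mean of the sensory receptor genes in each tumor. Of the 13 luminal genes, 8 had means above all receptor genes, and 2 had means at or below their 95th percentile. Mammary origin was not tested by these markers. The luminal marker list had 9 of 13 genes higher in preirradiated tumors and 1 with an unadjusted p under 0.05, against 2.84% of all probe sets in that direction. Other marker lists had more such genes. In preirradiated tumors 6 of 10 fibroblast, 5 of 12 basal and myoepithelial and 2 of 10 adipocyte genes were higher at an unadjusted p under 0.05. Lower at that p, against 2.97%, were 6 of 10 macrophage genes and 1 of 9 B and T cell genes, and all 10 and all 9 had lower means. All 16 skeletal muscle genes had higher means, with 0 at that p. No gene passed the adjusted limma p. Correlations between arrays ran from 0.991 to 0.996. Nonirradiated tumor 1 held the lowest value of 5 of the 8 measured mammary genes (Csn1s2a, Csn2, Wap, Elf5 and Esr1), and its array also had the lowest median signal, 5.937. Array medians differed by group, at 5.937 to 5.977 in nonirradiated and 5.982 to 5.996 in preirradiated tumors. With arrays centred on their median, the Elf5 difference went from 0.039 to 0.0054 and that of Esr1 from 0.068 to 0.034. The part of this offset in the values of single tumors was not tested.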

How the data were processed

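Total RNA of 8 tumors was hybridized to Affymetrix Mouse Gene 1.0 ST arrays, 1 array per tumor. The authors deposited log2 signals, 1 per probe set and tumor. These are RMA values (robust multi-array average) according to the design text, made in R 2.15.3 with affy, per the submitters' processing notes. RMA subtracts background, equalizes array distributions and summarizes probes, so it compresses changes near background. The chip description and genome build are not given in the sources used here.

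Groups came from sample titles. Of 34760 probe sets, 34738 with a mean of at least 4.0 entered 1 limma fit (limma 3.58.1, R 4.3.3, lmFit and eBayes, two-sided, 4 against 4) with Benjamini-Hochberg adjustment. Gene names came from the platform annotation, and 21640 probe sets listed 1 symbol. The script was tested on simulated data. The members and gene lists were chosen with earlier results of these data known. Within each pathway list up to 5 genes were named, those past the study's filter and then by smallest p. Csn1s2b, Btn1a1, Plin2, Prl, Jak2, Stat5b, Gata3, Foxa1, Greb1, Esr2 and the marker genes were named after their values were seen. Promoters came from RefSeq. No protein sequences were used here. The number of arrays limits precision.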

Additional observations from a re-analysis of the deposited data

Results flagged for a closer look

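In groups of 4 tumors, a value was singled out when its gap to the nearest tumor took up more of the group's range than Dixon's 95% critical value allows. Of 128 such groups (measured mammary genes, named genes and marker list means) 14 were singled out. Chance gives about 1 in 20 for independent groups chosen beforehand. Some of these genes were named after their values were seen, and others were picked for likeness to Csn3. The count therefore cannot be set against that rate. Among the mammary genes this was Elf5 in preirradiated tumor 4, at 5.62 with the next value at 5.53. Glycam1 in nonirradiated tumor 4, at 8.33 with the next value at 4.79, was by far the widest gap. The same tumor stood apart for Cd79a (5.69), Ms4a1 (5.09) and Krt5 (7.37). Preirradiated tumor 3 stood apart for Krt5 (6.93), the mean of the skin genes (6.21) and, on the low side, Cd79a (4.60). Among the pathway genes, preirradiated tumor 4 stood apart for Stat5a (8.33, low) and Igfbp4 (12.14, high), nonirradiated tumor 1 for Cel (5.12, low) and nonirradiated tumor 2 for Xbp1 (11.03, low). Adipoq, the fat cell hormone adiponectin, was 5.77 in nonirradiated tumor 2, above the rest of its group. The mean of the macrophage genes was 10.51 in nonirradiated tumor 3, below the rest of its group.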

How the results depend on the processing

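Under 16 alternative settings, 0 of 121 values of the measured mammary genes passed an adjusted limma p of 0.05, and 0 of these genes passed the study's filter in any of them. Of these values 105 kept their sign and 16 reversed it. With arrays centred on their median, Csn1s2a was -0.022 and Wap -0.0068, and 1 gene, Pgr (-0.082), had an unadjusted p under 0.05. The same setting gave 0.0054 for Elf5, 0.034 for Esr1, -0.036 for Csn1s1, -0.058 for Csn2 and -0.10 for Csn3. A further quantile normalization gave Wap -0.0020, and array weights gave Csn1s1 0.0071. Leaving out preirradiated tumors 1 and 3, a setting chosen after seeing the data, gave Csn1s1 0.012 and Csn3 0.10. Leaving out 1 tumor at a time gave -0.025 to 0.018 for Csn1s1, -0.0025 to 0.027 for Csn1s2a, -0.27 to 0.060 for Csn3, -0.011 to 0.056 for Wap and -1.12 to 0.078 for Glycam1, whose sign turned without nonirradiated tumor 4. Csn2, Elf5, Esr1 and Pgr kept their sign in every setting run, but not their size: leaving out 1 tumor gave -0.042 to -0.011 for Csn2, 0.014 to 0.061 for Elf5, 0.038 to 0.085 for Esr1 and -0.068 to -0.026 for Pgr. Among pathway genes it gave -0.20 to -0.066 for Ltf, -0.28 to -0.097 for Ghr, -0.12 to -0.044 for Tff3 and -0.18 to -0.054 for Xbp1. The unadjusted limma p of Cel was 0.010 with centred arrays, 0.021 with quantile normalization and 0.038 with array weights. It was 0.049 with a trend and robust variance model and 0.024 without nonirradiated tumor 1. That of Xdh was 0.043 with centred arrays, 0.022 without nonirradiated tumor 2 and 0.048 without preirradiated tumor 3. For B4galt1 the unadjusted limma p was 0.048 without preirradiated tumor 4. At a mean limit of 6, Esr1 was the 1 mammary gene left. No member had another single-symbol probe set, so that alternative gave no value. With the number in each title as a replicate block, Esr1 differed by 0.068 (SE 0.042) and 0 mammary genes passed; same-numbered tumors did not deviate together (r from -0.29 to -0.075), and 0 of 8 tumors correlated best with its own number. Signals near background limit Csn1s1, Csn1s2a, Csn2, Csn3 and Pgr, whose means lie at or below the 95th percentile of the receptor genes; Wap and Elf5 lie above it but below the highest receptor gene.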
